A study of Mus musculus with 8 samples.

Results

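The genes described here are 10 components of Polycomb repressive complex 2 (PRC2), taken by exact match of the gene symbol from the deposited expression values of mouse embryonic stem cells (ESCs). They are Ezh1, Ezh2, Eed, Suz12, Rbbp7, Jarid2, Aebp2, Phf1, Mtf2 and Phf19, which are 10 of 38991 genes measured, and all 10 were among the 12927 genes with an FPKM (a read density corrected for transcript length and for the size of each library) of at least 1 in at least 2 cultures, which were tested. Phf19 met this minimum only through 2i and LIF+PD, in which it was highest.

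PRC2 is the enzyme that methylates lysine 27 of histone H3, a mark found over silent developmental genes. EZH1 or EZH2 carries the catalytic activity, and EED, SUZ12 and the histone-binding proteins RBBP4 or RBBP7 complete the core. The core assembles either with a Polycomb-like protein (PHF1, MTF2 or PHF19), which guides it to CpG-rich DNA, or with JARID2 and AEBP2, and in ESCs the complex is known less for keeping cells self-renewing than for permitting orderly differentiation.

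The cells were Rex1GFPd2 ESCs of strain 129, a single line that reports transcription of Rex1 (Zfp42) with a destabilised GFP. All cultures descended from cells expanded for 6 passages in 2i, the GSK3 inhibitor CHIR99021 (CH, 3 µM) together with the MEK inhibitor PD0325901 (PD, 1 µM), and were kept without serum on gelatin in N2B27 medium for 5 more passages, to passage 11. The cytokine LIF, CH and PD were given all together (2i+LIF), without LIF (2i), without CH (LIF+PD) or without PD (CH+LIF), and the comparisons ask how gene expression differed between cells with all 3 factors and cells without 1 of them. Since the starting cells were in 2i, LIF was added rather than withdrawn between 2i and 2i+LIF, and LIF+PD and CH+LIF each lost an inhibitor and gained LIF relative to the starting cells. Each of the 4 conditions had 2 cultures, and since no source says how independently these were grown, the p-values measure only the spread between them.

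RNA was taken from whole cultures, so that fewer cells with a transcript and less transcript per cell cannot be told apart. All 9 ESC markers examined had an FPKM of at least 1 in every culture. Their summed FPKM was 5285 to 6219 in 2i+LIF and 4656 to 5716 in 2i. It was lower than in 2i+LIF, without overlap, in LIF+PD (4323 to 4916) and CH+LIF (4806 to 5044). The part of this in the differences of the PRC2 genes was not tested. The sum of the FPKM of all genes lay between 715575 and 875458, highest in 2i+LIF on average and lowest in CH+LIF. The number of reads per culture is unknown from these values, but low values placed the relative depth between 0.499 in replicate 1 of 2i and 1.18 in replicate 2 of CH+LIF, with replicate 1 of 2i+LIF as 1.

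Differences are given on the log2(FPKM + 1) scale from limma, as the first condition minus the second, and a gene is said to have risen or fallen only at a Benjamini-Hochberg adjusted p below 0.05 over all genes tested. The scale understates the change of weakly expressed genes such as Phf19, so ratios of mean FPKM are given as well. By the F test of limma across the 4 conditions, 7 of the 10 genes differed, compared with 46.8% of all genes tested. These were Phf19, Aebp2, Rbbp7, Suz12, Ezh2, Jarid2 and Ezh1, in order of their adjusted p. Eed, Phf1 and Mtf2 did not pass. Phf19 was tested only through the conditions in which it was highest. Its part in this count and in the counts by condition cannot be set against the shares of all genes.

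**Figure D1:**
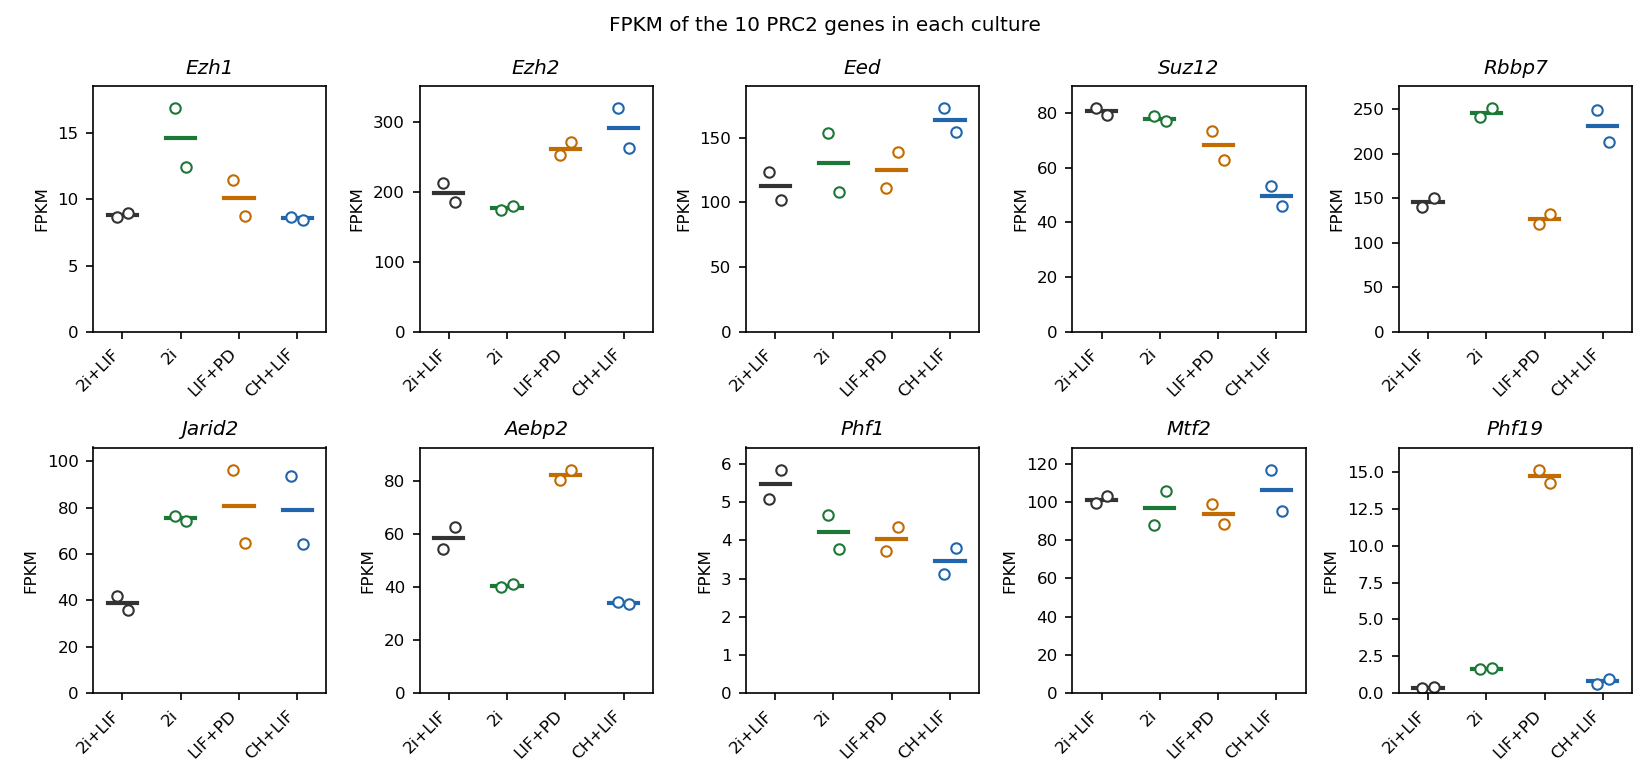
FPKM of each of the 10 PRC2 genes (vertical axes, each from 0) in the 4 culture conditions (horizontal axes). Open circles are single cultures and bars are means of 2 cultures. Phf19 stands at 14.3 and 15.2 in LIF+PD and at or below 1.71 elsewhere, Rbbp7 is high in 2i and CH+LIF, Aebp2 is high in LIF+PD, and Mtf2 stays between 88.0 and 117.

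The RNA of Ezh2, which encodes the main methyltransferase of dividing cells, was higher in both conditions that lacked an inhibitor than in both that contained CH and PD together. It was measured at 213 and 185 FPKM in 2i+LIF, 175 and 180.4 in 2i, 253 and 271 in LIF+PD, and 320.3 and 264 in CH+LIF. Every culture without CH or without PD was therefore above every culture with both inhibitors. Relative to 2i+LIF, Ezh2 rose by 0.55 ± 0.12 (SE) in CH+LIF (1.46 times, limma adjusted p = 0.0158) and by 0.40 ± 0.12 in LIF+PD (1.32 times, adjusted p = 0.0452). Relative to 2i, it rose by 0.71 in CH+LIF (adjusted p = 0.00629) and by 0.56 in LIF+PD (adjusted p = 0.0130). The difference between 2i and 2i+LIF was -0.16 with a 95% interval from -0.44 to 0.11. The rise in LIF+PD over 2i+LIF was close to the threshold and was lost when either culture of 2i+LIF, 2i or LIF+PD was left out, with an adjusted p of up to 0.205 without replicate 2 of 2i+LIF. It was also lost with median-of-ratios size factors (0.0525) and with limma without a trend (0.0722). That in CH+LIF over 2i+LIF was lost without replicate 2 of 2i+LIF (0.0867) or replicate 1 of CH+LIF (0.0792), and that in LIF+PD over 2i without replicate 1 of 2i (0.0627) or replicate 2 of LIF+PD (0.0768).

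Ezh1, the alternative methyltransferase that prevails in resting and differentiated cells, was expressed at a small fraction of Ezh2. Its FPKM was 8.64 and 9.01 in 2i+LIF, 16.9 and 12.5 in 2i, 11.5 and 8.79 in LIF+PD, and 8.70 and 8.46 in CH+LIF. Both cultures of 2i were above all others. Ezh1 rose by 0.66 ± 0.17 (SE) in 2i over 2i+LIF (1.66 times, limma adjusted p = 0.0371) and fell by 0.70 in CH+LIF relative to 2i (adjusted p = 0.0264). Replicate 1 of 2i, the shallowest library, was the higher of the 2i pair, and without it the 2 differences were 0.45 (adjusted p = 0.146) and -0.49 (adjusted p = 0.114). The first call was also lost without either culture of 2i+LIF or CH+LIF (adjusted p from 0.0611 to 0.146), and the second without either culture of CH+LIF (0.0971 and 0.101).

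The ratio of Ezh2 to Ezh1 accordingly ranged from 10.3 in replicate 1 of 2i to 36.8 in replicate 1 of CH+LIF. It averaged 22.6 ± 2.89 (SD, n = 2) in 2i+LIF, 12.4 ± 2.92 in 2i, 26.5 ± 6.24 in LIF+PD and 34.0 ± 4.00 in CH+LIF. The 2i cultures were below all others and the CH+LIF cultures above all others, whereas 2i+LIF and LIF+PD overlapped.

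Among the core subunits, Rbbp7 changed the most and was high in the conditions that lacked LIF or PD. RBBP7 is a histone chaperone that several chromatin complexes share, so its RNA is not particular to PRC2. Rbbp7 had an FPKM of 140.0 and 150.5 in 2i+LIF, 241 and 251 in 2i, 121 and 132 in LIF+PD, and 248 and 213 in CH+LIF. The cultures of 2i and CH+LIF, which lacked LIF or PD, lay well above those of 2i+LIF and LIF+PD, with no overlap. Compared with 2i+LIF, Rbbp7 rose by 0.76 ± 0.10 (SE) in 2i (1.69 times, limma adjusted p = 0.00298) and by 0.66 ± 0.10 in CH+LIF (1.59 times, adjusted p = 0.00449). In LIF+PD the difference from 2i+LIF was -0.20, with a 95% interval from -0.43 to 0.04. Relative to 2i it fell by 0.95 in LIF+PD (adjusted p = 0.000752), and CH+LIF was above LIF+PD by 0.86 (adjusted p = 0.00102). All 4 of these calls were kept under every alternative tried.

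Rbbp4, which encodes the close paralogue that takes the same place in the complex, did not differ between conditions by the F test of limma (adjusted p = 0.663) and lay between 84.9 and 101 FPKM in the 8 cultures. The ratio of Rbbp7 to Rbbp4 was therefore 1.60 ± 0.24 (SD, n = 2) in 2i+LIF and 1.29 ± 0.14 in LIF+PD, against 2.55 ± 0.20 in 2i and 2.53 ± 0.08 in CH+LIF. The lowest ratio in the latter conditions, 2.40, was above the highest in the former, 1.77. The 2 genes are similar in sequence, and how reads common to both were divided is not known beyond the authors' use of uniquely mapped reads.

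Suz12, whose product holds the core together and binds the accessory proteins, was lowest without PD. Its FPKM was 81.7 and 79.4 in 2i+LIF, 78.9 and 77.0 in 2i, 73.5 and 62.6 in LIF+PD, and 53.2 and 45.8 in CH+LIF. Both CH+LIF cultures were below all others. In CH+LIF, Suz12 fell by 0.69 ± 0.11 (SE; 0.615 times, limma adjusted p = 0.00502) relative to 2i+LIF, fell by 0.65 relative to 2i (adjusted p = 0.00649) and fell by 0.45 relative to LIF+PD (adjusted p = 0.0191). Only the last of these was lost when a culture was left out, with an adjusted p of 0.103 without replicate 1 of LIF+PD and of 0.0936 without replicate 2 of CH+LIF.

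Eed, whose product binds the methylated histone tail and stimulates the enzyme, had 124 and 102 FPKM in 2i+LIF, 153 and 108 in 2i, 111 and 139 in LIF+PD, and 173 and 154 in CH+LIF. Both CH+LIF cultures were above all others, but the pairs in the other conditions overlapped. The largest difference, 0.53 ± 0.19 (SE) between CH+LIF and 2i+LIF, had a 95% interval from 0.08 to 0.98 and did not pass the adjusted test (limma adjusted p = 0.0835). It passed with only the 2 conditions compared in the fit (0.0462), with the midpoint of the bounds deposited with each FPKM (0.0470) and after rescaling to the same sum in each culture (0.0124). Leaving out each culture in turn gave differences from 0.40 to 0.67.

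In CH+LIF the ratio of these 2 core genes stood apart from all other cultures. The ratio of Eed to Suz12 was 3.25 and 3.36 in CH+LIF and between 1.29 and 2.22 in the other 6 cultures. The FPKM of Eed, but not that of Suz12, lay above its deposited upper bound in all 8 cultures. The size of the ratio therefore depends on the use of the FPKM.

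**Figure D2:**
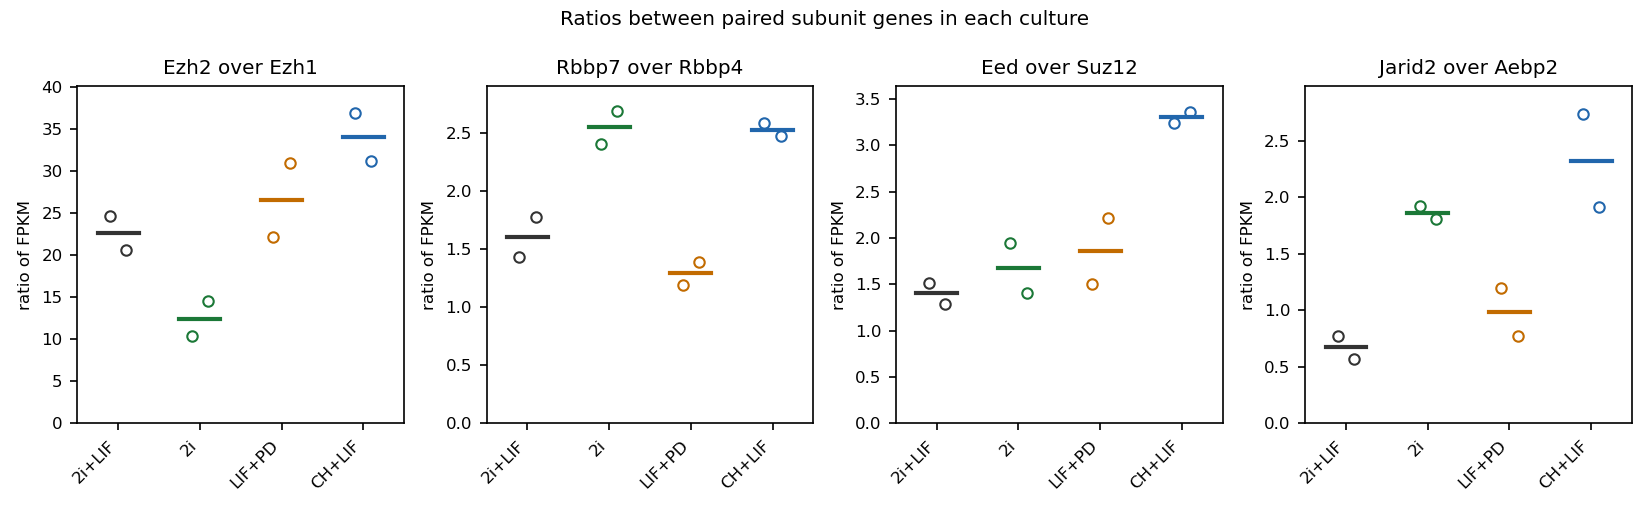
Ratios of FPKM between pairs of PRC2 genes (vertical axes, from 0) by condition (horizontal axes), with circles for single cultures and bars for means of 2 cultures. Ezh2 over Ezh1 is lowest in 2i, Rbbp7 over Rbbp4 is at or above 2.40 in 2i and CH+LIF only, Eed over Suz12 is above 3 only in CH+LIF, and Jarid2 over Aebp2 is above 1.8 in 2i and CH+LIF.

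Of the accessory genes, Jarid2, which encodes a DNA-binding partner that helps to recruit PRC2 and stimulates it, was lowest in 2i+LIF. It had 41.8 and 35.8 FPKM there, 76.5 and 74.1 in 2i, 96.3 and 64.7 in LIF+PD, and 93.6 and 64.3 in CH+LIF. No culture lacking 1 of the 3 factors came down to the level of 2i+LIF. Jarid2 rose by 0.94 ± 0.22 (SE) in 2i (1.94 times, limma adjusted p = 0.0285), 1.01 ± 0.22 in LIF+PD (2.07 times, adjusted p = 0.0177) and 0.99 ± 0.22 in CH+LIF (2.04 times, adjusted p = 0.0197).

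These 3 rises share the 2 cultures of 2i+LIF. All 3 were lost without replicate 1 (adjusted p from 0.0561 to 0.0788) or replicate 2 (0.0928 to 0.136) of 2i+LIF, although the difference itself remained between 0.83 and 1.12. The rise of Jarid2 in 2i was also lost without either 2i culture (0.103 and 0.0899), that in LIF+PD without its replicate 1 (0.0851) and that in CH+LIF without its replicate 1 (0.103). Between the other conditions, the differences of Jarid2 ranged from -0.02 to 0.07, with 95% intervals that lay between -0.55 and 0.60.

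Aebp2, which encodes a zinc finger protein found in the same form of the complex, took a different course. Its FPKM was 54.2 and 62.7 in 2i+LIF, 39.8 and 41.0 in 2i, 80.3 and 84.0 in LIF+PD, and 34.2 and 33.7 in CH+LIF. The 4 conditions did not overlap, in the order LIF+PD, 2i+LIF, 2i and CH+LIF, of which the last 2 did not differ by the adjusted test (-0.25, limma adjusted p = 0.0903). Against 2i+LIF, Aebp2 rose by 0.49 ± 0.09 (SE) in LIF+PD (1.41 times, adjusted p = 0.00886) fell by 0.52 in 2i (0.692 times, adjusted p = 0.00881) and fell by 0.76 in CH+LIF (0.581 times, adjusted p = 0.00200). The contrast between the conditions without CH and without PD was the widest, at -1.25 for CH+LIF against LIF+PD (0.413 times, adjusted p = 0.000174), and LIF+PD was above 2i by 1.01 (adjusted p = 0.000440). The rise in LIF+PD was lost without replicate 1 of 2i+LIF (0.0520) or replicate 2 of LIF+PD (0.0546), and the fall in 2i without replicate 2 of 2i+LIF (0.0530).

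The ratio of Jarid2 to Aebp2 separated 2i+LIF and LIF+PD from 2i and CH+LIF, but overlapped within each of these pairs of conditions. It was 0.772 and 0.571 in 2i+LIF and 1.20 and 0.770 in LIF+PD, against 1.92 and 1.81 in 2i and 2.74 and 1.91 in CH+LIF. Their summed FPKM was highest in LIF+PD, at 177 and 149, and between 96.0 and 128 in the other 6 cultures.

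Of the Polycomb-like genes, Phf19 showed the widest range of all 10. PHF19 binds methylated lysine 36 of histone H3 through its Tudor domain and is linked to the spread of PRC2 into formerly active genes. Phf19 was near the limit of measurement in 2i+LIF, at 0.312 and 0.410 FPKM, where the lower bound deposited for replicate 1 was 0. It reached 1.62 and 1.71 in 2i, 15.2 and 14.3 in LIF+PD, and 0.606 and 0.979 in CH+LIF. The 4 conditions did not overlap, and each LIF+PD culture was above the other 6 cultures by a wide margin.

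In LIF+PD, Phf19 rose over 2i+LIF by 3.53 ± 0.16 (SE; limma adjusted p = 5.11e-05), a ratio of mean FPKM of 40.8 that rests on a small denominator. The rise over 2i was 2.56 (8.84 times, adjusted p = 0.000105), and the difference of CH+LIF from LIF+PD was -3.14 (adjusted p = 5.01e-05). These 3 calls were kept under every alternative in which Phf19 was tested, but the size of the first depended on the pseudocount, from 1.88 with a pseudocount of 5 to 5.02 with 0.1. Phf19 also rose in 2i over 2i+LIF by 0.97 (4.61 times, adjusted p = 0.00672), a call likewise kept in all of these, with a size from 0.31 to 1.95.

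The remaining differences of Phf19 were small in absolute terms. CH+LIF exceeded 2i+LIF by 0.39 with a 95% interval from 0.02 to 0.76 (limma adjusted p = 0.113). Relative to 2i it fell by 0.58 (adjusted p = 0.0365), but this call was lost when any culture other than replicate 2 of CH+LIF was left out, with an adjusted p of up to 0.171 without replicate 1 of CH+LIF, where the difference was -0.43. It was also lost with a pseudocount of 5, where the difference was -0.20 (0.0666), after rescaling to the same sum in each culture (0.0739) and after quantile normalization (0.0610). The nearest genes on either side of Phf19 that were tested did not pass in LIF+PD against 2i+LIF. Psmd5, 18789 base pairs away, differed by 0.38 (limma adjusted p = 0.0549), and Cntrl, 195466 base pairs away, by 0.51 (adjusted p = 0.0735).

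Mtf2, the main Polycomb-like gene of ESCs, was level. It had 99.2 and 103 FPKM in 2i+LIF, 88.0 and 105.6 in 2i, 98.7 and 88.3 in LIF+PD, and 117 and 95.3 in CH+LIF. Apart from LIF+PD, which lay just below 2i+LIF, the conditions overlapped, the F test of limma gave an adjusted p of 0.630, and the widest of the 6 differences was 0.17 between CH+LIF and LIF+PD, with a 95% interval from -0.13 to 0.48.

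Phf1, whose product binds the same histone mark as PHF19, was weakly expressed. Its FPKM was 5.09 and 5.85 in 2i+LIF, 4.66 and 3.77 in 2i, 3.72 and 4.35 in LIF+PD, and 3.13 and 3.80 in CH+LIF. Both 2i+LIF cultures were above all others, while the other 3 conditions overlapped. In CH+LIF, Phf1 fell by 0.54 ± 0.16 (SE; 0.633 times, limma adjusted p = 0.0449) relative to 2i+LIF, but the call was lost without either culture of 2i+LIF, LIF+PD or CH+LIF (0.0622 to 0.207) and when values were rescaled to the same sum in each culture, where the difference was -0.39 (adjusted p = 0.147).

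Phf1 overlaps Cuta on the opposite strand, a gene with 77.7 to 134 FPKM that fell in LIF+PD relative to 2i+LIF (by 0.74, limma adjusted p = 0.00338). In CH+LIF, the condition of the Phf1 call, Cuta was also lower, at 81.7 and 88.3 FPKM against 134 and 129 in 2i+LIF. The part of Cuta reads in the Phf1 call was not tested. The authors' own gene counts, which were not used here, were made with a reverse-strand setting, but whether the deposited FPKM also separate the strands is not given in the sources used here. If they do not, reads from Cuta and Phf1 cannot be told apart. The same holds, at levels below those of the PRC2 gene, for Mtf2 and Tmed5 (46.1 to 57.4 FPKM), Rbbp7 and Txlng (15.3 to 22.3), Suz12 and Gm26563 (3.28 to 6.44) and Eed and E230029C05Rik (1.55 to 2.49).

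Within the Polycomb-like genes, Phf19 made up 13.1% ± 0.33 (SD, n = 2) of the summed FPKM in LIF+PD, against 0.337% ± 0.055 in 2i+LIF, 1.63% ± 0.13 in 2i and 0.741% ± 0.34 in CH+LIF. Mtf2 held between 82.6% and 96.9% in every culture. The sum itself averaged 107 FPKM in 2i+LIF, 103 in 2i, 112 in LIF+PD and 110.2 in CH+LIF.

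**Figure D3:**
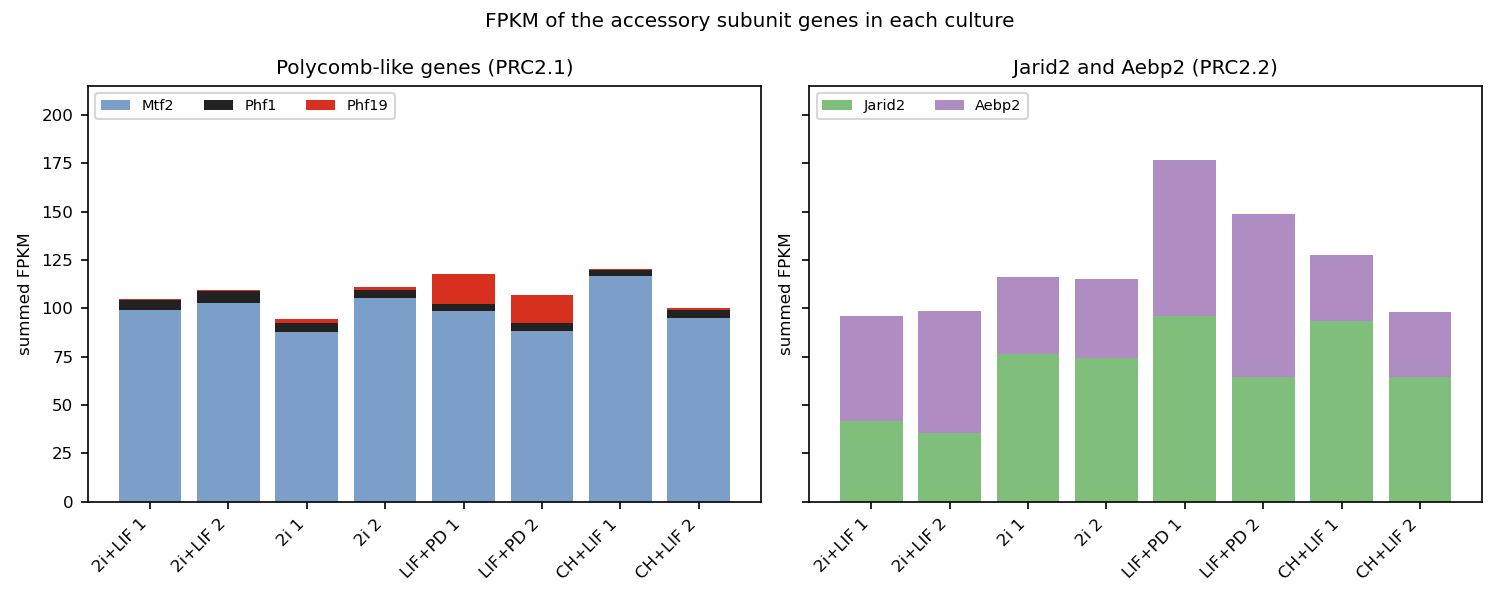
Summed FPKM (vertical axis, from 0) of the Polycomb-like genes Mtf2, Phf1 and Phf19 (left) and of Jarid2 and Aebp2 (right) in each of the 8 cultures (horizontal axis), stacked by gene. Phf19 is visible as a share of 12.9% and 13.4% in the LIF+PD cultures, and the proportion of Jarid2 to Aebp2 is above 1.8 in 2i and CH+LIF.

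Sequences before the start sites of Phf19, Ezh2 and Suz12 are shown because these 3 were the PRC2 genes whose promoter windows held a short E2F word, and they include the gene with the widest range. E2F factors drive genes of the cell cycle, and Ezh2 is a known target of theirs. The windows of RefSeq (build GRCm38.p6) span 250 bases before and 50 bases from the start, and are printed 5′ to 3′ on the strand of the gene as far as the first 20 bases of the transcript. The start sites of RefSeq differ from those of the gene models behind the FPKM for Phf19 and Ezh2, but not for Suz12. The model of Ezh2 began at 47595341, so that its whole window lay inside the model. The model of Phf19 began at 34914026, inside its window. Capitals mark matches to E2F words (TTTCCCGC, TTTCGCGC, TTTGCCGC or TTTGGCGC) and to TCF/LEF words (CTTTG followed by 2 letters that are each A or T) on either strand.
Phf19, chr2:34913957-34914226, minus strand: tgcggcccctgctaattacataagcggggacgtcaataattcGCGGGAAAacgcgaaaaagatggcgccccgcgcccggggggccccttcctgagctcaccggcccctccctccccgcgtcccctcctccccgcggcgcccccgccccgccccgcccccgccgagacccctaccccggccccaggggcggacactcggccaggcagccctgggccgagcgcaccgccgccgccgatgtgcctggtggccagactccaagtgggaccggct
Ezh2, chr6:47595011-47595280, minus strand: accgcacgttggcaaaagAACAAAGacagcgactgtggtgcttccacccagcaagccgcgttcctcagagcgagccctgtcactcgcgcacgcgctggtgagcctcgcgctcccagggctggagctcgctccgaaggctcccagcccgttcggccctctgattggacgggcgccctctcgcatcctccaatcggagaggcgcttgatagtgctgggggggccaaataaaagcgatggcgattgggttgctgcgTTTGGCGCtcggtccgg
Suz12, chr11:79992856-79993125, plus strand: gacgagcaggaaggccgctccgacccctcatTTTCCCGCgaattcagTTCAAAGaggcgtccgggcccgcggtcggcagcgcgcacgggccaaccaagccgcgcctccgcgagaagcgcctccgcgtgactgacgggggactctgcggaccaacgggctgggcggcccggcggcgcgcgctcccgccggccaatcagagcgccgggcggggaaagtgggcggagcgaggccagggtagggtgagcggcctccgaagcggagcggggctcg

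The 10 genes had 14 windows in RefSeq, some with several start sites. An E2F word was found in 3 of them, against 2.27% of 32841 promoter windows of the same length. In Phf19 it began 208 bases before the start, in Suz12 219 bases before, and in Ezh2 3 bases after. TCF/LEF words, the sites of the factors that act with β-catenin downstream of GSK3, were found in 5 windows (16.9% of all promoters), including those of Ezh2 and Suz12 but not that of Phf19. A STAT word (TTCNNNGAA, for the factors downstream of LIF) and an ETS word (CCGGAAG, for factors downstream of MEK) were found in 0 windows, against 8.30% and 8.86% of all promoters. These matches describe letters and not bound sites. Of the genes with both an E2F and a TCF/LEF word, Suz12 was lowest and Ezh2 on average highest in CH+LIF. The part of these words in the differences was not tested. The Phf19 window was 74.3% G or C with a CpG ratio (observed over expected) of 0.952, compared with medians of 52.7% and 0.384 over all promoters. The CpG ratio was 0.999 in the Ezh2 window and 1.09 in that of Suz12. Every E2F word holds a CpG, and the promoters compared were not matched for CpG content.

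Read by condition, cells without LIF (2i against 2i+LIF) had higher Ezh1, Rbbp7, Jarid2 and Phf19 and lower Aebp2. These were 4 of 10 higher, against 9.77% of all genes tested, and 1 of 10 lower, against 8.86%. The 4 include Phf19, which the filter kept only through 2i and LIF+PD. The median difference of the 10 genes was 0.07, compared with 0.04 over all genes. The count of 5 called fell to 3 without replicate 1 of 2i+LIF or replicate 1 of 2i, and to 2 without replicate 2 of 2i+LIF. Markers of other cell types also differed in this comparison. The summed FPKM of 3 neural markers was 7.81 to 9.30 in 2i against 1.09 to 1.18 in 2i+LIF, that of 4 markers of the post-implantation epiblast 56.5 to 84.0 against 35.7 to 38.0, that of 4 mesoderm markers 9.38 to 16.3 against 5.22 to 6.18, and that of 5 fibroblast markers, of which 1 was at 0 in every culture, 1.496 to 4.19 against 0.270 to 0.617. The neural marker Pax6 alone stood at 7.81 and 9.20 in 2i, against 0.577 and 0.459 in 2i+LIF. The rest of the neural sum was lower in 2i than in 2i+LIF. The mesoderm marker T alone stood at 15.4 and 8.24 in 2i, against 4.86 and 3.64 in 2i+LIF. The part of these markers in the differences of the PRC2 genes was not tested.

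Cells without CH (LIF+PD against 2i+LIF) had higher Ezh2, Jarid2, Aebp2 and Phf19. These were 4 of 10 higher, against 14.8% of all genes tested. The 4 include Phf19, which the filter kept only through 2i and LIF+PD. By the adjusted limma test 0 of 10 were lower, against 10.4% of all genes, which is near that share for 10 genes. At an unadjusted p below 0.05 it was also 0 of 10, but no share of all genes was taken at that threshold. The median was 0.15, compared with 0.03 over all genes. The count of 4 fell to 1 without replicate 1 of 2i+LIF, and to 2 without replicate 2 of 2i+LIF or without either culture of LIF+PD. Markers of other cell types also differed in this condition. The summed FPKM of 4 markers of the post-implantation epiblast was 96.1 to 104 in LIF+PD against 35.7 to 38.0 in 2i+LIF, that of 3 neural markers 12.03 to 12.05 against 1.09 to 1.18, and that of 5 trophectoderm markers 72.0 to 87.3 against 49.7 to 55.4, whereas that of 4 mesoderm markers was 1.78 to 1.99 against 5.22 to 6.18. The sum of 5 primitive endoderm markers was 3.68 to 4.86 against 1.46 to 2.08, and that of 5 fibroblast markers 1.80 to 2.65 against 0.270 to 0.617. Of the epiblast markers 2 of 4, of the neural 0 of 3, of the trophectoderm 3 of 5 and of the mesoderm 0 of 4 had an FPKM of at least 1 in every culture. Of the primitive endoderm and of the fibroblast markers 0 of 5 did. The neural marker Pax6 alone stood at 11.3 and 10.7 in LIF+PD, against 0.577 and 0.459 in 2i+LIF. The mesoderm marker T alone stood at 0.161 and 0.210 in LIF+PD, against 4.86 and 3.64 in 2i+LIF. Cdx2, a regulator of trophectoderm, went the other way from the trophectoderm sum. It stood at 0.0433 and 0.0960 in LIF+PD, against 10.2 and 7.91 in 2i+LIF. The higher sum therefore does not describe every trophectoderm gene. The part of these markers in the difference of Phf19 or of any other PRC2 gene was not tested.

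Cells without PD (CH+LIF against 2i+LIF) had higher Ezh2, Rbbp7 and Jarid2 and lower Suz12, Aebp2 and Phf1. These were 3 of 10 higher, against 12.2% of all genes tested, and 3 of 10 lower, against 13.3%. The median was 0.23, compared with 0.01 over all genes. The count of 6 fell to 3 without replicate 2 of 2i+LIF or replicate 1 of CH+LIF. After rescaling to the same sum, Eed passed and Phf1 did not, which left 4 of 6 called genes higher in place of 3 of 6. In the same condition the summed FPKM of 4 mesoderm markers was 19.6 to 37.4, that of the fibroblast markers was 4.00 to 17.1, and that of the epiblast markers was 69.1 to 71.9. The mesoderm marker T alone stood at 36.3 and 18.5 in CH+LIF. The part of these markers in the differences of the PRC2 genes in CH+LIF was not tested.

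**Figure D4:**
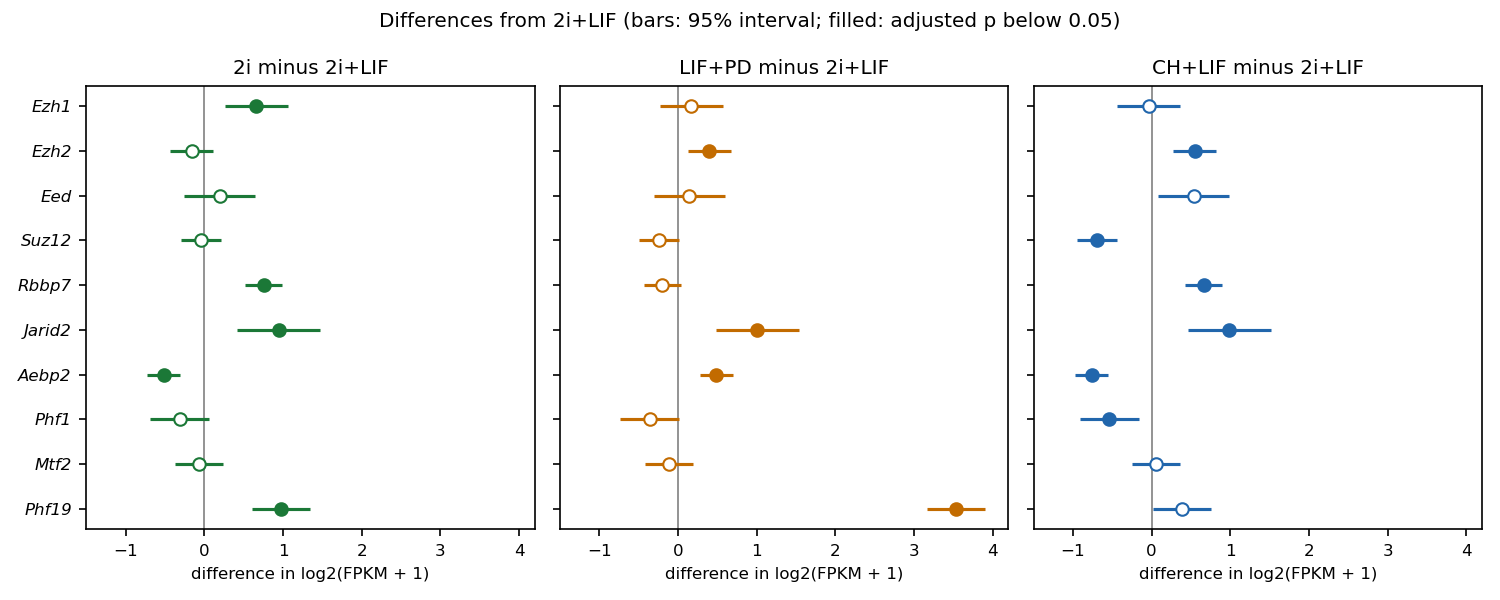
Differences from 2i+LIF on the log2(FPKM + 1) scale (horizontal axes) of the 10 PRC2 genes (vertical axis) in 2i, LIF+PD and CH+LIF, which share the 2i+LIF cultures. Circles are limma estimates from 2 cultures against 2, bars are 95% intervals, and filled circles have an adjusted p below 0.05. Jarid2 lies to the right of 0 in all 3 panels, at 0.94, 1.01 and 0.99, and Phf19 in LIF+PD lies at 3.53.

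Between the conditions that each lacked a factor, LIF+PD against 2i had Ezh2, Aebp2 and Phf19 higher and Rbbp7 lower. These were 3 of 10 higher, against 14% of all genes tested, and 1 of 10 lower, against 11.1%. CH+LIF against 2i had Ezh2 higher and Ezh1, Suz12 and Phf19 lower, 1 of 10 against 10.6% and 3 of 10 against 13.3%. This count of 4 fell to 2 without replicate 1 of 2i or replicate 1 of CH+LIF. CH+LIF against LIF+PD had Rbbp7 higher and Suz12, Aebp2 and Phf19 lower, 1 of 10 against 12.6% and 3 of 10 against 17.8%. Phf19, kept by the filter only through 2i and LIF+PD, is counted in each of these comparisons. The medians of the 10 genes were -0.05, -0.16 and -0.10, compared with -0.00451, -0.03 and -0.01 over all genes.

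The scale of the values bears on these counts. With each culture rescaled to the same sum (TPM), the median of all genes shifted upwards, to 0.09 in 2i, 0.16 in LIF+PD and 0.19 in CH+LIF relative to 2i+LIF, from 0.04, 0.03 and 0.01. The share of called genes that were higher moved from 58.6% to 74.8% in LIF+PD and from 47.9% to 74.1% in CH+LIF against 2i+LIF, and from 44.5% to 64.1% in CH+LIF against 2i, whereas the split of the PRC2 genes moved only in CH+LIF against 2i+LIF and against 2i (from 1 of 4 higher to 1 of 3). The FPKM of Ezh2, Eed and Rbbp7 lay above the upper bound deposited beside it in all 8 cultures, and that of Mtf2 in 4. Ezh1 and Suz12 lay within their bounds. The ratios between genes used the FPKM and were not repeated with the bounds. With the midpoint of the bounds in place of the FPKM, all 27 calls among the PRC2 genes were kept, and Eed in CH+LIF against 2i+LIF passed in addition. With every gene above 0 tested, 7 of the 27 were lost, namely Ezh1 in 2i against 2i+LIF and in CH+LIF against 2i, Ezh2 in LIF+PD, Jarid2 in 2i and CH+LIF and Phf1 in CH+LIF against 2i+LIF, and Phf19 in CH+LIF against 2i. With only the 2 conditions compared in the fit, 7 were lost as well, namely the same ones of Ezh1, Ezh2, Phf1 and Phf19, together with Ezh2 in CH+LIF against 2i+LIF and Suz12 in CH+LIF against LIF+PD.

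Among other PRC2 genes, 4 of 5 listed were tested and 1 differed by the F test of limma. This was E130012A19Rik (Epop), which encodes an ESC-enriched partner of the Polycomb-like form of the complex. It had 263 and 210.0 FPKM in 2i+LIF, 129 and 119.8 in 2i, 181 and 165 in LIF+PD, and 168 and 185 in CH+LIF. Epop was highest in 2i+LIF, without overlap, and fell by 0.92 in 2i (adjusted p = 0.00315), by 0.44 in LIF+PD (adjusted p = 0.0375) and by 0.41 in CH+LIF (adjusted p = 0.0463). Lcor (F test adjusted p = 0.0714) and Rbbp4 did not pass.

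PRC1, the other Polycomb complex, places ubiquitin on histone H2A, and 13 of its 23 listed genes, all tested, differed between conditions by the F test of limma, compared with 46.8% of all genes tested. In 2i, LIF+PD and CH+LIF, 3, 4 and 2 of them were higher than in 2i+LIF, against 9.77%, 14.8% and 12.2% of all genes, and 4, 4 and 5 were lower, against 8.86%, 10.4% and 13.3%. Among those with the smallest adjusted p were Cbx8, a reader of the mark that PRC2 places, and Kdm2b, which brings PRC1 to CpG-rich DNA. Cbx8 had 9.12 and 8.78 FPKM in 2i+LIF and 6.88 and 10.4 in LIF+PD, but 1.66 and 1.13 in 2i and 0.473 and 0.0670 in CH+LIF (F test adjusted p = 0.000299). Cbx8 was thus low in the conditions in which Aebp2 was low and Rbbp7 high. Kdm2b was lowest in 2i+LIF, at 39.2 and 37.4, as Jarid2 was, and stood at 88.2 and 82.0 in 2i, 85.4 and 64.2 in LIF+PD, and 61.0 and 51.3 in CH+LIF (adjusted p = 0.00343).

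Of the enzymes that remove these marks, the H3K27 demethylase Kdm6a differed by the F test of limma (adjusted p = 0.00701) and Kdm6b did not (adjusted p = 0.0512). Kdm6a was at 13.0 and 12.1 FPKM in 2i+LIF and 12.4 in both CH+LIF cultures, and higher in 2i (16.8 and 16.5) and LIF+PD (19.9 and 17.7). Of 3 genes of the H2A deubiquitinase, Bap1 (adjusted p = 0.00870) and Asxl1 (0.0165) differed and Asxl2 (0.112) did not. Bap1 was highest in CH+LIF, at 33.6 and 35.9 against 23.4 to 25.96 elsewhere, and Asxl1 in LIF+PD, at 49.1 and 41.7 against 27.9 to 37.3.

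Of 24 developmental genes known as Polycomb targets in ESCs, 9 were expressed enough to be tested, and the other 15 never exceeded 0.870 FPKM. Of the 9, 7 differed by the F test of limma, compared with 46.8% of all genes tested. Pax6 met the minimum for testing only through 2i and LIF+PD, and Neurog1 only through LIF+PD (1.41 and 1.70 FPKM). The filter thus favoured targets that differ, and the count cannot be set against that share as a result about Polycomb targets. Pax6 and Neurog1 were also the 2 that were higher in LIF+PD than in 2i+LIF. In 2i 3 were higher than in 2i+LIF (9.77% of all genes), in LIF+PD 2 were higher (14.8%) and 3 lower (10.4%), and in CH+LIF 2 were higher (12.2%) and 2 lower (13.3%). The genes that passed moved differently from each other. Pax6, a regulator of neural and eye development, had 0.577 and 0.459 FPKM in 2i+LIF, 7.81 and 9.20 in 2i, 11.3 and 10.7 in LIF+PD, and 0.805 and 0.660 in CH+LIF (F test adjusted p = 4.26e-05). Cdx2, a regulator of trophectoderm, had 10.2 and 7.91 in 2i+LIF and 12.2 and 10.6 in 2i, but 0.0433 and 0.0960 in LIF+PD and 1.90 and 0.733 in CH+LIF (adjusted p = 0.000222). Cdkn2a, a cell cycle inhibitor locus, had 40.7 and 32.6 in 2i+LIF, 73.7 and 60.9 in 2i, 25.8 and 26.3 in LIF+PD, and 13.9 and 11.4 in CH+LIF (adjusted p = 0.000251).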

How the data were processed

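RNA from 8 cultures of Rex1GFPd2 ESCs, 2 in each of 4 conditions, was sequenced from a single end. Reads were aligned by the authors to mm10, using Ensembl 75 gene models, and those mapping to a single place were retained. The deposited FPKM of every gene and culture comes with a lower and upper bound, which did not enclose the FPKM of every gene. The submitters' processing notes name TopHat2, Cufflinks and Cuffdiff. The methods describe rRNA-depleted libraries and the sample records polyA RNA, and the authors' gene counts, not used here, were made with a reverse-strand setting, while that of the FPKM is not given in the sources used here. Because FPKM are scaled within a culture, they depend on the library total and the transcript model used.

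The 39013 entries per culture included 22 that repeated an identifier, which were summed to give 38991 genes. Values were taken as log2(FPKM + 1), with a pseudocount of 1. The 12927 genes that reached an FPKM of 1 in 2 or more cultures were fitted in limma 3.58.1 (R 4.3.3) with a mean-variance trend, all 4 conditions in a single fit with 4 residual degrees of freedom, and p-values were Benjamini-Hochberg adjusted over all genes tested at a threshold of 0.05. The procedure was tested on simulated data. SD over 2 cultures has 1 degree of freedom. No counting interval is given, since the depth is not part of the values.

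The PRC2 genes, other gene lists and tests were chosen with earlier results of these data known. All 10 PRC2 genes are named. From each other list, the 3 tested genes with the smallest adjusted p of the F test are named, except for 1 result that is not reported here, and for the 2 PRC2 genes with the widest range of condition means, the 3 genes with the highest Pearson r among tested genes of mean FPKM of at least 5. The midpoint of the bounds was added as an alternative after the data were seen. The other alternatives concerned the pseudocount, the filter, the scaling, the fit and each culture. Sequences were searched with pandas 2.3.3, numpy 2.4.6 and scipy 1.17.1 under Python 3.11.15, and plots were drawn in matplotlib 3.10.9.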

Additional observations from a re-analysis of the deposited data

How the results depend on the processing

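Of 27 differences of single PRC2 genes that passed the limma test, 0 changed direction under any alternative and 14 passed under every alternative. The counts of PRC2 genes that passed moved by over 1.5 times in the following settings. With every gene above 0 tested, 3 in place of 5 passed in 2i against 2i+LIF and 2 in place of 4 in CH+LIF against 2i. With only the 2 conditions compared in the fit, 2 passed in CH+LIF against 2i. Leaving out each culture in turn gave 2 to 5 in 2i against 2i+LIF, 1 to 4 in LIF+PD against 2i+LIF, 3 to 7 in CH+LIF against 2i+LIF, 3 to 5 in LIF+PD against 2i, 2 to 3 in CH+LIF against 2i, 3 to 4 in CH+LIF against LIF+PD, and 5 to 7 by the F test. A filter of a mean FPKM of at least 5 left out Phf19 and Phf1. The cause of these changes was not tested, apart from the additional genes or fewer cultures that these settings used.

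With a replicate block, the counts were 5, 4, 5, 4, 4 and 4 in the 6 comparisons and 7 by the F test, and the 1 call that changed was Phf1 in CH+LIF against 2i+LIF (adjusted p = 0.0515). Same-numbered cultures did not deviate together, with correlations of -0.0283 to 0.0925 over 6 pairs of conditions, and no source says that the number marks a shared batch.

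Only differences that had not passed changed direction. After rescaling to TPM these were Suz12 in 2i (0.017), Mtf2 in LIF+PD (0.021) and Ezh1 in CH+LIF (0.15) against 2i+LIF, Eed (0.019), Mtf2 (0.024) and Phf1 (0.011) in LIF+PD and Rbbp7 in CH+LIF (0.045) against 2i, and Jarid2 in CH+LIF against LIF+PD (0.044). Quantile normalization turned Ezh1 in CH+LIF against 2i+LIF (0.00082), and the midpoint of the bounds Eed in LIF+PD against 2i (0.0014). Leaving out cultures gave -0.059 to 0.44 for Eed and -0.20 to 0.062 for Mtf2 in 2i against 2i+LIF, -0.022 to 0.30 for Eed and -0.0058 to 0.34 for Ezh1 in LIF+PD against 2i+LIF, and -0.085 to 0.20 for Mtf2 in CH+LIF against 2i+LIF. In LIF+PD against 2i it gave -0.30 to 0.20 for Eed, -0.22 to 0.35 for Jarid2, -0.18 to 0.084 for Mtf2 and -0.17 to 0.076 for Phf1. In CH+LIF it gave -0.22 to 0.31 for Jarid2, -0.017 to 0.27 for Mtf2 and -0.20 to 0.015 for Rbbp7 against 2i, and -0.31 to 0.26 for Jarid2 against LIF+PD.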

Other observations

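The genes whose pattern over the 8 cultures was most like that of Phf19 were Myl9 (Pearson r of 0.990 on the log2 scale), Glipr2 (0.987) and Tcea1 (0.985), among 8811 genes. Myl9, a myosin light chain, had 51.9 and 96.6 FPKM in LIF+PD against at most 3.31 elsewhere, and Glipr2 had 34.1 and 40.0 against at most 12.5. For Aebp2 they were Ildr1 (0.993), Sord (0.987) and 9030617O03Rik (0.985), among 8810 genes. Ildr1 had 52.5 and 61.5 FPKM in LIF+PD, 35.4 and 40.5 in 2i+LIF, 20.6 and 20.9 in 2i, and 14.8 and 16.9 in CH+LIF, the same order as Aebp2. These coefficients rank genes over cultures that cluster by condition and share their libraries.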
